A study of Mus musculus with 12 samples.

Results

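Paired acetylation peaks are places where 2 peaks of H3K9ac/K27ac (histone H3 acetylated at lysine 9 and lysine 27) lay next to each other in the thymocytes of floxed mice. Members were chosen by the measured peak calls. A floxed peak was taken when its gap to another floxed acetylation peak was under 1000 bp, when no peak of the Lck-Cre acetylation list and no floxed ZFAT peak overlapped it by 1 bp or more, and when it was not in a run of 4 or more peaks joined at gaps up to 12.5 kb. This gave 1951 of the 13016 floxed acetylation peaks (14.99%), in 1080 separate loci. The choice rests on the floxed and Lck-Cre lists themselves, so the absence of a Lck-Cre call is how the peaks were chosen and not a result.

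The study profiled chromatin of thymocytes, which are T cells maturing in the thymus. Zfatf/f mice, 4 to 5 weeks old, have both Zfat alleles floxed, so that Cre recombinase can delete part of the gene, and Zfatf/f-LckCre mice of the same age add a Cre driven from Lck, a T-lineage gene. Both lines thus share the floxed alleles and differ in the Cre, and C57BL/6 (B6) mice were the other line. H3K9ac/K27ac was measured in Zfatf/f and Zfatf/f-LckCre thymocytes, ZFAT in all 3 lines, and H3K9me3, a mark of silenced chromatin, in Zfatf/f alone. Each ChIP was 1 library, and how many animals went into a library was not found in the labels. Whole thymocytes were used, so cells of other types in the thymus were not removed by a sort named in the labels, and whether Cre had removed Zfat in every cell was not measured in these lists.

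H3 acetylation at lysine 9 and lysine 27 sits on the nucleosomes of active promoters and enhancers, where acetyl groups are recognised by bromodomain proteins. The DNA bound by transcription factors within such an element is often free of a nucleosome, so that acetylated nucleosomes flank it on either side and a single element can appear as a pair of peaks. Micrococcal nuclease, used here before sonication, cuts the linker DNA between nucleosomes. ZFAT is a nuclear zinc-finger protein, profiled here in thymocytes.

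The lists held 13016 floxed and 2225 Lck-Cre acetylation peaks, all in mm9. The depth inferred from the lists was about 2190000 fragments for the floxed and 1340000 for the Lck-Cre library. With 1 library per group there is no test between the lines, and every difference below compares libraries. Intervals on shares are exact Clopper-Pearson 95% intervals and, like the exact Poisson 95% intervals on fragments, cover counting error only. Where a count was 0, the limit given is the share that 3 counts would make. Fold is the deposited enrichment of ChIP over the local background at a peak's summit, P score is the −log10 of their caller's p, and pileup is the number of fragments over the summit, inferred from both.

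Pairing was common in the floxed list. In all, 3245 peaks (24.9%) lay under 1000 bp from another, against 214 of the 2225 Lck-Cre peaks (9.62%); a shorter list holds fewer neighbours, and this difference was not tested. Of the 3245, 913 were in runs of 4 or more, which left 2332. Of those 913, 90.8% had no Lck-Cre peak. Among all floxed acetylation peaks, 87.7% had no Lck-Cre peak. Among the 2332 paired peaks outside runs it was 2018 (86.5%), and among the 8520 isolated peaks outside runs it was 86.9%. Another 67 of the 2018 overlapped a floxed ZFAT peak and were set aside, leaving the 1951. Paired peaks were therefore missing from the Lck-Cre list about as often as the list as a whole.

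Recurrence rose with strength to a like extent in paired and isolated peaks. In the lowest decile of P score, 4 of 155 paired peaks (2.58%, 0.708% to 6.48%) and 19 of 922 isolated peaks (2.06%, 1.25% to 3.20%) were called in Lck-Cre. In decile 7 the shares were 11.6% (7.83% to 16.3%) and 11.7% (9.64% to 13.96%). In the highest decile, at P scores of 67.1 or more, they were 121 of 251 (48.2%, 41.9% to 54.6%) and 403 of 904 (44.6%, 41.3% to 47.9%). The intervals of the paired and the isolated share overlapped in each of the 10 deciles. These calls chose the members, so they describe the list only.

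**Figure D1:**
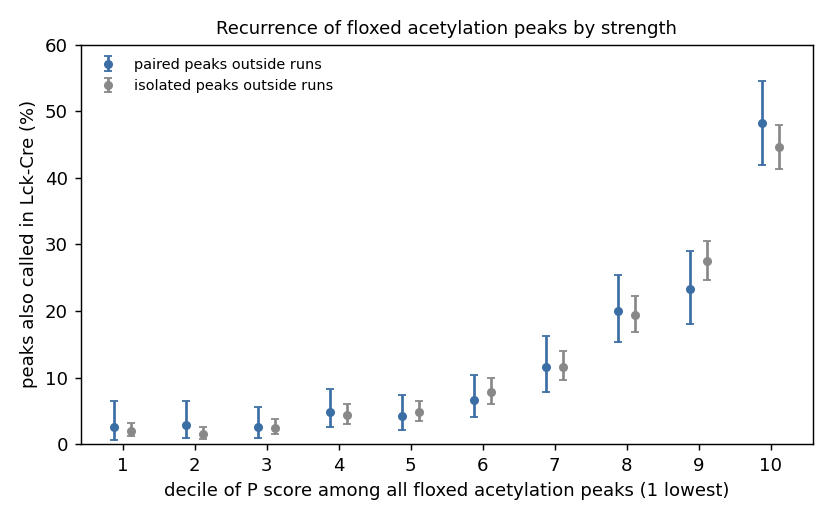
Share of floxed H3K9ac/K27ac peaks outside runs that were also called in Lck-Cre (vertical axis, percent), by decile of P score (horizontal axis), for paired (blue) and isolated (grey) peaks; bars are exact 95% intervals. Both shares rise from about 2% in decile 1 (2.58% and 2.06%) to 48.2% and 44.6% in decile 10, with overlapping intervals throughout.

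The 1951 members did not reach the top of the floxed list, whose highest P score was 259.994, highest fold 80.4 and highest pileup 287. Their P scores ran from 5.02 to 135, with a median of 24.97 and quartiles of 15.1 and 41.7. A P score under 10 was found for 174 members, and one between 10 and 20 for 568. The largest class, between 20 and 50, held 888, and beyond it 305 reached 50 and 16 reached 100. Their folds ran from 2.56 to 43.9 with a median of 8.51. Their pileups ran from 4 to 124 fragments with a median of 37, and 101 members (5.18%) rested on 10 fragments or fewer. All but 174 members thus had a P score at least 2 times the caller's limit of 5.

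Isolated peaks that met the same conditions on Lck-Cre and ZFAT, 7143 in number, had a median P score of 23.3, a median fold of 8.10 and a median pileup of 35. Of these, 985 (13.8%) rested on 10 fragments or fewer, so the weakest peaks were a larger share there than among the members. Conversely, the 314 paired peaks that were called in Lck-Cre had a median P score of 58.7, a median fold of 12.8 and a median pileup of 73. Lengths had a median of 264 bp in members, 275 bp in the isolated peaks and 509 bp in the paired peaks called in Lck-Cre, so members were slightly shorter than isolated peaks by this measure. The control background inferred at the summit, had a median of 3.39 scaled fragments in members and in isolated peaks. It was at most 18.96 at any member, so none lay where the control was 20 or more.

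With an overlap of 1 bp or more counted, the share of members with a called neighbour was close to the share of all floxed acetylation peaks that had a Lck-Cre peak, 12.3%. Of the 1951, 1665 (85.3%, 83.7% to 86.9%) had another member as their nearest neighbour. For 237 (12.1%, 10.7% to 13.7%) the nearest neighbour was called in Lck-Cre, and for 61 (3.13%, 2.400% to 3.998%) it carried a floxed ZFAT peak, with 12 counted in both. With members chosen anew, the share with a called neighbour was 5.01% when a Lck-Cre peak within 500 bp counted as a call and 7.19% when at least 50% of the peak had to be covered. Of the paired peaks outside runs, 79.3% and 92.1% were not called under these rules. Within 500 bp the share with a called neighbour was thus well below the share of paired peaks that were called. Counted as adjacent pairs outside runs, there were 1211. Neither peak was called in Lck-Cre in 922 (76.1%), 1 was called in 254 (20.97%) and both in 35 (2.89%). In 864 pairs both peaks were members. Where both peaks were called, a single Lck-Cre peak covered the pair in 1 case, and in the other 34 the pair remained 2 peaks.

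Most pairs stood alone. There were 627 loci made of 2 members with no further peak within 12.5 kb. Another 236 loci had 3 peaks, and in 52 of these all 3 were members and followed each other at gaps under 1000 bp. These arrays of 3 had a median span of 1776 bp. Their pileups had medians of 36.5, 41.5 and 36 fragments from left to right, and the middle peak was the highest in 20 of 52 (38.5%, 25.3% to 53.0%).

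The 10 strongest pairs, ranked by the summed P score of both members, show what such a locus looks like. None of their 20 peaks overlapped a peak of the H3K9me3 list, of either B6 ZFAT list or of the Lck-Cre ZFAT list, and by the rule none overlapped an Lck-Cre acetylation or floxed ZFAT peak. The first lay on chromosome 11. Its left peak, at 4998589 to 4999009, had a fold of 21.4 and a pileup of 122 (interval 101 to 146). Its right peak, at 4999173 to 4999769, had a fold of 43.9, the highest of all members, on a lower pileup of 62 (47.5 to 79.5), over an inferred background of 0.435 against 4.74 on the left. The pair thus differed in opposite directions by fold and by fragments.

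The second pair, on chromosome 8 at 11555093 to 11555290 and 11556077 to 11557874, had its summits farthest apart. Its folds were 20.1 and 36.5, its pileups 87 and 85, and the distance of 2519 bp was the largest of any of the 864 pairs. The third, on chromosome 2 at 5634886 to 5635455 and 5635627 to 5636205, was compact, with summits 386 bp apart and folds of 12.8 and 17.9. Its left peak had a pileup of 124 (103 to 148), the most fragments of any member. The fourth, on chromosome 13 at 102537196 to 102538120 and 102538303 to 102538491, joined a long peak (925 bp, fold 24.9, pileup 109) to a short one (189 bp, fold 14.8, pileup 74).

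The fifth and sixth pairs were balanced. On chromosome 4, at 11083224 to 11083423 and 11083581 to 11083866, the pileups were 112 (92.2 to 135) and 107 (87.7 to 129), with summits 361 bp apart. On chromosome 5, at 122734418 to 122735029 and 122735231 to 122735441, they were 86 and 85, with folds of 19.8 and 19.6. The intervals of the 2 pileups overlapped in both pairs.

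The seventh, on chromosome 12, was the least equal of the 10. Its left peak, at 117519142 to 117519504, had a fold of 8.54 and a pileup of 48 (35.4 to 63.6), and its right peak, at 117519747 to 117520261, a fold of 29.8 and a pileup of 112 (92.2 to 135). The P score of the right peak, 135, was the highest of all members. Here the intervals did not overlap. The last 3 lay on chromosome 15 at 101004082 to 101004322 and 101004577 to 101004967 (folds 30.2 and 18.1), on chromosome 5 at 137041279 to 137043078 and 137043304 to 137044073 (folds 25.4 and 12.5), and on chromosome 9 at 44688902 to 44689389 and 44689636 to 44689944 (folds 22.6 and 15.4). The left peak had the higher fold in each of these 3.

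**Figure D2:**
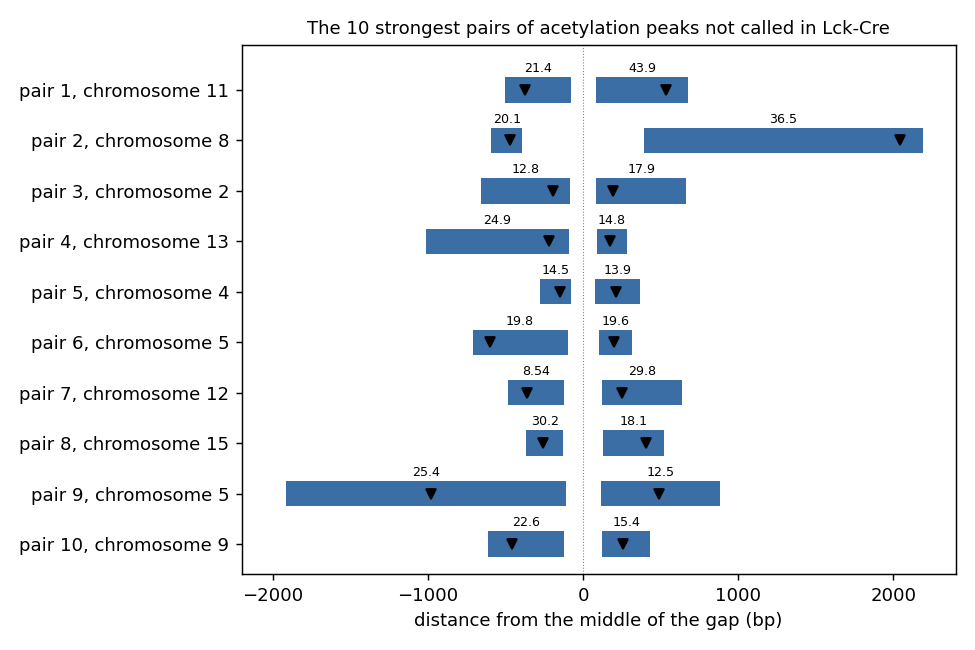
The 10 strongest pairs in which both acetylation peaks were absent from the Lck-Cre list, drawn to scale as bars by distance in bp from the middle of the gap (horizontal axis), 1 pair per line; triangles mark summits and the number above each bar is the floxed fold. Summits are farthest apart in pair 2, at 2519 bp, and closest in pair 5, at 361 bp; pair 9 covers the most sequence, 2795 bp from edge to edge.

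Gaps within pairs were short. Over the 864 pairs of members the gap had a median of 274 bp, with quartiles of 196 and 446 bp, and 236 pairs had a gap under 200 bp and 239 one from 200 to under 300 bp. From there the count per 100 bp fell to 14 pairs at 900 bp or more. The lowest gap was 155 bp, also the lowest in the whole floxed acetylation list and close to the 150 bp fragment length of the caller. The list thus holds no closer pairs, and whether closer peaks were joined into a single peak was not tested. Across all adjacent floxed peaks there were 467 gaps from 200 to under 300 bp and 49 in the last 100 bp below the limit. The next 1000 bp held 389 gaps and the 1000 bp after that 278, so counts fell slowly beyond the limit.

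Summits of the 864 pairs were 251 to 2519 bp apart, with a median of 614 bp. In 36 pairs the distance was under 350 bp, in 430 it was from 350 to under 650 bp, in 290 from 650 to under 1000 bp and in 108 it was 1000 bp or more. In bins of 50 bp the count was highest at 350 to under 400 bp, with 85 pairs, and no later bin held as many. No gap was under 155 bp and no member was shorter than 153 bp, which limits the shortest distances. Whether any spacing was preferred was not tested. The whole pair, from outer edge to outer edge, covered a median of 976 bp. Gaps differed little by class of pair. The median was 273 bp where 1 peak was a member and the other was called in Lck-Cre (247 pairs). It was 289 bp where both peaks were called (35 pairs). Where the peak beside a member carried ZFAT and was not called (54 pairs), it was 337 bp. Distances between summits were larger in those classes, at 697, 692 and 673 bp; called peaks were also longer.

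**Figure D3:**
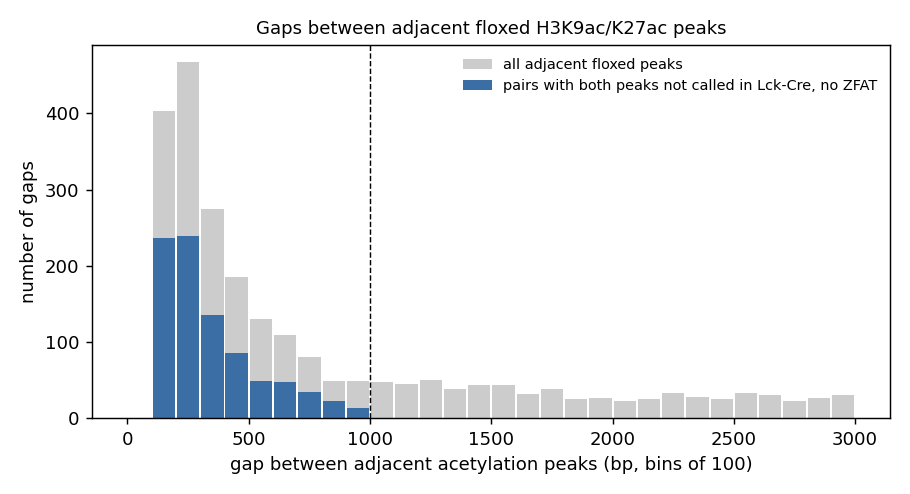
Number of gaps (vertical axis) between adjacent floxed H3K9ac/K27ac peaks by gap length in bins of 100 bp (horizontal axis), for all adjacent peaks (grey) and for the 864 pairs of members (blue, drawn over the grey); the dashed line is the 1000 bp limit. Gaps crowd under 400 bp and the grey bars fall slowly beyond 1000 bp.

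Peaks of a pair were often unequal. The higher pileup of a pair had a median of 49 fragments and the lower one of 26, and the ratio of the 2 had a median of 1.66 with quartiles of 1.26 and 2.38. The ratio was under 1.5 in 360 pairs (41.7%), from 1.5 to 3 in 373 and 3 or more in 131 (15.2%). The 95% intervals of the 2 pileups did not overlap in 307 pairs (35.5%), and in the other pairs they did. The peak with the higher pileup was the longer one in 600 of the 849 pairs with unequal pileups (70.7%), with median lengths of 358 and 212 bp. Across the 864 pairs the pileups of left and right peaks had a Pearson r of 0.19 and a Spearman rho of 0.19. The 2 values of a pair come from 1 library and share its depth, and their correlation is given as a description.

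Neither side was favoured. The right peak, towards higher coordinates, had the higher pileup in 412 pairs and the left in 437 (48.5% right, 45.1% to 51.9%), with 15 equal. By P score, 37 pairs had 50 or more in both peaks, 14 had under 10 in both and 66 joined a peak of 50 or more to one under 20. Closer pairs held more fragments. At gaps under 200 bp the higher and lower pileups had medians of 53 and 30.5 fragments (236 pairs), and at 900 bp or more 43 and 16.5 (14 pairs).

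**Figure D4:**
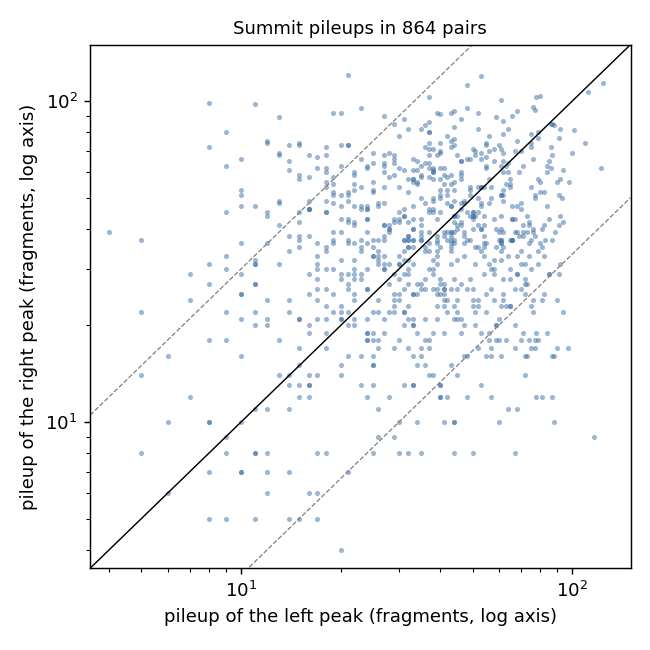
Pileup at the summit of the left (horizontal) and right (vertical) peak in each of the 864 pairs of members, in fragments on log axes; the solid line is equality and the dashed lines a ratio of 3. Points scatter widely on both sides of equality, and 131 pairs lie at or beyond a ratio of 3.

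Summits leaned towards the gap. Over the 1728 peak positions of these pairs (a peak in the middle of 3 counts in both its pairs), the summit was nearer the edge that faced the partner in 956 and nearer the outer edge in 765 (55.5% inner, 53.2% to 57.9%). For right peaks the inner share was 58.2% (54.8% to 61.5%) and for left peaks 52.9% (49.5% to 56.3%). The list has a lean of its own, since in 7143 isolated peaks the summit was nearer the left edge in 53.0% (51.9% to 54.2%). This lean adds to the inner share of right peaks and subtracts from that of left peaks, and the pooled 55.5% holds both in equal number. The displacement was small, with medians of 114 bp to the inner and 121 bp to the outer edge. In peaks from 300 to under 500 bp long the medians were 158 and 205 bp, with 56.0% (51.3% to 60.6%) inner. In pairs within runs of 4 or more the inner share was 52.4% (49.3% to 55.4%), and the difference from the pairs outside runs was not tested.

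At 237 members the neighbour was still called in Lck-Cre, so that the pair was missing only in part. The called neighbour was usually the stronger one in floxed thymocytes. It had the higher P score in 176 of 237 (74.3%, 68.2% to 79.7%). Where the neighbour was itself a member the share was 835 of 1665 (50.2%). Most of those pairs are counted from both sides, which by itself holds that share near even, so it is no measure to compare with. Members of these pairs had a median of 44 fragments in the floxed library and their neighbours one of 72. Over the 237 members, which share 231 distinct neighbours, the Lck-Cre peak at the neighbour had a median of 20 fragments, a median fold of 4.82 and a median P score of 10.2. These were near the medians of the whole Lck-Cre acetylation list, 18 fragments, a fold of 4.86 and a P score of 9.51. The whole floxed acetylation list had medians of 38 fragments, a fold of 8.62 and a P score of 25.9, so the lower Lck-Cre values are not particular to these loci. Median floxed fold was 10.1 in the members and 12.9 in the neighbours. Since the pairs were sorted by the Lck-Cre call, these values describe them and test nothing.

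Each Lck-Cre peak was taken because it overlapped the neighbour, and by the rule none overlapped the member, so its position is only described. The Lck-Cre summit lay a median of 34 bp from the floxed summit (upper quartile 146 bp, highest 881 bp). It was within 50 bp in 147 of 237 (62.0%). The nearer edge of the Lck-Cre peak was a median of 394 bp from the member and never closer than 163 bp. In 45 of the 237 the neighbour that was called had no more fragments in the floxed library than the member that was not. There the member had a median of 69 fragments, the neighbour 44, and the Lck-Cre peak 14.

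**Figure D5:**
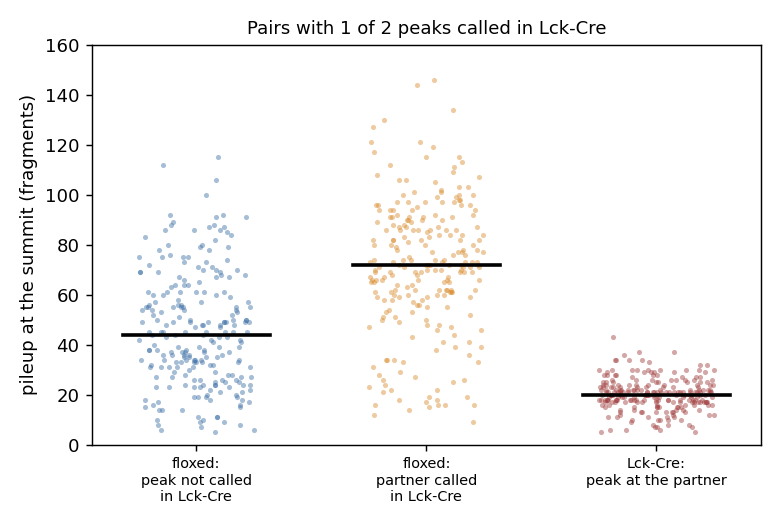
Pileup at the summit, in fragments (vertical axis), for the 237 members whose neighbour was called in Lck-Cre, for those neighbours in the floxed library, and for the Lck-Cre peak at the neighbour. Each column has 1 point per member, so a neighbour shared by members (231 are distinct) and its Lck-Cre peak are drawn more than once. The black line is the median. The medians are 44, 72 and 20 fragments. Over the whole acetylation lists the medians are 38 fragments in floxed and 18 in Lck-Cre. Inferred depth was about 2190000 fragments in floxed and 1340000 in Lck-Cre.

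The 5 strongest of these members lay on chromosomes 1, 17, 8, 11 and 7. On chromosome 1, the member at 64579525 to 64580219 had a fold of 39.7 and a pileup of 84 (67.0 to 104). Its neighbour, at 64578847 to 64579235, had a floxed fold of 43.8 and an Lck-Cre fold of 9.81 with 23 fragments (14.6 to 34.5). On chromosome 17, the member at 4994057 to 4994337 (fold 31.4, pileup 73) stood beside a peak of 2380 bp at 4994503 to 4996882. The Lck-Cre peak in that long neighbour, at 4995352 to 4995602, had a fold of 3.03 and 21 fragments. The member also carried a B6 ZFAT peak called against input, with a fold of 4.58.

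In the next pair of loci the member was the stronger peak of its pair. On chromosome 8, the member at 127420885 to 127421616 had a fold of 18.4 and a pileup of 92, and its neighbour at 127421800 to 127422381 a floxed fold of 7.62, an Lck-Cre fold of 3.65 and 22 Lck-Cre fragments. On chromosome 11, the member at 69810053 to 69810805 had a fold of 13.4 and a pileup of 112 (92.2 to 135), against a floxed fold of 8.41 and a pileup of 70 (54.6 to 88.4) in its neighbour at 69809304 to 69809633. That neighbour had 18 fragments in Lck-Cre (10.7 to 28.4), and the member again carried a B6 ZFAT peak called against input (fold 5.71). On chromosome 7, the member at 16632656 to 16633466 (fold 18.9) and its neighbour at 16631874 to 16632430 (fold 18.1) were close in fold, and the neighbour had an Lck-Cre fold of 6.86 with 29 fragments.

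Stronger members more often had a called neighbour. The share was 8 of 174 (4.598%, 2.01% to 8.86%) for members with a P score under 10, 44 of 568 (7.75%, 5.68% to 10.3%) from 10 to 20 and 126 of 888 (14.2%, 11.96% to 16.7%) from 20 to 50. Among the strongest members, whose P score reached 50, it was 59 of 321 (18.4%, 14.3% to 23.1%). The neighbour's own median P score rose in the same order, from 17.5 to 39.3. For paired peaks that were called in Lck-Cre themselves, 69 of 314 (21.97%, 17.5% to 26.97%) had a called neighbour. The neighbours of all 314 had a median P score of 37.8, against 27.2 for the neighbours of all members.

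The distance to Lck-Cre acetylation depended on the neighbour. Few Lck-Cre peaks near members whose neighbour was not called follow from that condition, and the values are given as a description. Of the 1665 members whose neighbour was a member, 4 (0.240%, 0.0655% to 0.614%) had a Lck-Cre peak within 500 bp and 20 (1.20%) within 1000 bp. Of the isolated peaks, 12 of 7143 (0.168%) had one within 1000 bp. The median distance to the nearest one was 201331 bp for the 1665, 160780 bp for all 1951 members and 181871 bp for the isolated peaks. A single pair held a Lck-Cre peak in its gap. On chromosome 2, between floxed peaks ending at 179710239 and starting at 179711052 (folds 7.90 and 16.6), the Lck-Cre list had a peak at 179710710 to 179710868 with a fold of 5.43 and 10 fragments. This pair was singled out after its values were seen.

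ZFAT was absent from the members by the rule only for the floxed list. Beside them, 61 members had a neighbour with a floxed ZFAT peak, 60 distinct ZFAT peaks in all. These ZFAT peaks had a median fold of 5.91 and a median of 15 fragments, against 5.35 and 9 in the whole floxed ZFAT list. They lay a median of 463 bp from the member. The neighbour with ZFAT had the higher acetylation P score in 48 of 61 (78.7%, 66.3% to 88.1%), with medians of 45.4 against 27.8 in the member. Median lengths were 403 bp in these neighbours and 254 bp in the members, and 12 of the 61 neighbours were also called in Lck-Cre. Since the pairs were sorted by the ZFAT call, these values describe them and test nothing. Of all floxed acetylation peaks, 3.43% carried floxed ZFAT.

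The 3 strongest members of this kind were on chromosomes 11, 2 and 15. On chromosome 11, the member at 69794746 to 69795088 had an acetylation fold of 16.0, and its neighbour at 69794348 to 69794552 had an acetylation fold of 19.9 and a ZFAT peak of fold 7.51 with 18 fragments. That neighbour was also called in Lck-Cre, with an acetylation fold of 4.64. On chromosome 2, the member at 26358694 to 26359321 (acetylation fold 12.6) was far stronger than its neighbour at 26357832 to 26358095 (acetylation fold 3.22), whose ZFAT peak had 9 fragments and a fold of 5.95. On chromosome 15, the member at 96116915 to 96117168 (acetylation fold 13.0) stood beside a peak of 1351 bp at 96117343 to 96118693. The latter carried ZFAT (fold 5.65, 20 fragments) and an Lck-Cre acetylation peak (fold 4.78, 36 fragments), both in its right part.

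In B6 thymocytes ZFAT was called at few members. The inferred depth was about 632000 fragments for the B6 ZFAT library, against about 1510000 for the floxed ZFAT library. A missing B6 call is therefore not a measured absence of ZFAT. Against input, 28 of 1951 members (1.44%, 0.956% to 2.07%) carried a B6 ZFAT peak, where 2.96% of all floxed acetylation peaks did. With members chosen anew under each rule, the share was 2.22% with overlap counted within 500 bp and 0.809% with at least 50% of the peak covered. The isolated peaks chosen under the same conditions gave 185 of 7143 (2.59%, 2.23% to 2.99%), an interval that does not overlap that of the members. Paired peaks of runs, not called in Lck-Cre and without floxed ZFAT, gave 11 of 815 (1.35%, 0.676% to 2.40%), close to the share of the members. Paired peaks called in Lck-Cre gave 19 of 314 (6.05%, 3.68% to 9.29%). Against IgG, 4 members (0.205%, 0.0559% to 0.524%) carried a B6 peak, where 1.04% of all floxed acetylation peaks did. The isolated peaks gave 38 of 7143 (0.532%, 0.377% to 0.729%), and this interval overlaps that of the members. A peak of both B6 lists was carried by 0 members (a count of 0 allows up to 0.154%). The Lck-Cre ZFAT list overlapped 0 members, where 0.154% of all floxed acetylation peaks were overlapped. Peaks with floxed ZFAT had been excluded, and how far this lowers the B6 and Lck-Cre ZFAT shares was not tested.

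The B6 ZFAT peaks at members were taken because they overlapped one, so only their place within it is described. Of the 28 called against input, 24 lay wholly inside the member, and their summits were a median of 47 bp from the acetylation summit. They held 4 to 17 fragments with a median of 8. The one with the highest P score, on chromosome 6 at 113327469 to 113327734 (fold 13.2, 13 fragments), had its summit 3 bp from that of the member at 113327468 to 113327742 (acetylation fold 25.04), and the neighbouring acetylation peak carried floxed ZFAT. The next, on chromosome 15 at 94373706 to 94373866 (fold 8.52, 8 fragments), lay inside the member at 94373697 to 94373878. The highest P score against IgG belonged to a peak on chromosome 11 at 70832545 to 70832727 (fold 6.66, 6 fragments), inside the member at 70832529 to 70832731. With no member in both B6 lists, these 3 were named after their values were seen.

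The gaps themselves held no called ZFAT peak. With about 632000 fragments inferred for the B6 ZFAT library, a missing B6 call is not a measured absence. In the 864 pairs, whose gaps summed to 299481 bp, 0 gaps were touched by a peak of either B6 ZFAT list or of the H3K9me3 list (a count of 0 allows up to 0.347% of pairs for each list). The 1676 members of these pairs, summing to 580611 bp, carried 19 B6 peaks called against input and 4 against IgG. The floxed and Lck-Cre ZFAT lists also touched 0 gaps, where the rule had already removed floxed ZFAT peaks that reached an acetylation peak.

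H3K9me3 met 4 members (0.205%, 0.0559% to 0.524%), where 0.807% of all floxed acetylation peaks carried it. In the isolated peaks it was 85 of 7143 (1.19%, 0.952% to 1.47%), whose interval lies above that of the members. In paired peaks of runs not called in Lck-Cre it was 8 of 815 (0.982%, 0.425% to 1.92%). All 4 members were the weaker peak of their pair. They were on chromosome 8 at 97765101 to 97765333 (acetylation fold 7.07, H3K9me3 fold 5.07), on chromosome 5 at 125639807 to 125640029 (12.4 and 7.004), on chromosome 17 at 8476726 to 8477551 (6.10 and 3.64) and on chromosome 2 at 32207993 to 32208155 (3.63 and 4.87). On chromosome 17 the 2 summits lay 449 bp apart within a peak of 826 bp, and at the other 3 they were within 37 bp. The H3K9me3 peaks held 10 to 20 fragments.

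At the limits of the choice, the gap just inside it was 987 bp, between members on chromosome 17 at 26056030 to 26056605 (fold 8.89, pileup 44) and 26057592 to 26057746 (fold 5.37, pileup 8). Just outside it, at 1003 bp, were peaks on chromosome 5 at 141067822 to 141068133 (fold 22.1, pileup 36) and on chromosome 8 at 47824662 to 47824827 (fold 8.71, pileup 49). The lowest P score of any member, 5.02 on 10 fragments (4.795 to 18.4), was shared by 3 members. They lay on chromosome 16 at 30601594 to 30601925 and on chromosome 2 at 130249722 to 130249979 and at the site with H3K9me3.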

How the data were processed

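The 7 peak lists of 6 ChIP-seq libraries were used (B6 ZFAT has a list against each control); input and IgG libraries were not analysed here. Per the file headers, the authors called peaks per library in mm9 with a fragment length of 150 bp, an effective genome of 1870000000 bp, a p threshold of 1e-05 and a dynamic local background; the submitters' processing notes name MACS (for the B6 samples), SAMtools 0.1.18, Trimmomatic 0.22 and CASAVA 1.8.1. No aligner was named, and the control is not named in the header of any floxed or Lck-Cre list. The deposited P scores and Q scores are −log10 values of p and of its adjusted form, and the deposited fold is a ratio of ChIP to the local background computed by the authors. Start, end and summit are the other deposited values; positions were taken as 1-based. The Q score was not used, since it exceeded the P score in 2245 floxed acetylation peaks.

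A pileup is the whole number of fragments k that, with a background b, gives both fold (k + 1)/(b + 1) and the Poisson tail above k as p, within 0.0001 on the P score; all 13016 floxed acetylation peaks had 1 solution. Depth was inferred from the lowest background of a list. The procedures were checked on simulated data. Python 3.11.15, pandas 2.3.3 and scipy 1.17.1 were used.

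Members and lists were chosen with earlier results of these data known. Regions named are the 10 strongest pairs, the 5 strongest members with a called neighbour, the 3 strongest with a ZFAT neighbour, up to 5 with H3K9me3 or with both B6 lists, those nearest the gap limit and the weakest. No sequence or gene is given, since the reference tables used another build than mm9 and were not used here; the gene lists and motif search planned were therefore not run.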

Additional observations from a re-analysis of the deposited data

How the results depend on the processing

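Across 7 alternatives (pair gap under 500 or under 2000 bp, runs kept, P score of 10 or more, overlap within 500 bp or of at least 50% of the peak, high control background left out), 62 of 77 values of 11 results stayed within the main 95% interval, or within 1.5 times for the number of members. That number ran from 1598 (gap under 500 bp) to 2766 (runs kept). The alternatives for the summit lean, the strength of called neighbours and the medians of fold, pileup and length were chosen after seeing the data. The median distance between a member's summit and its neighbour's, 621 bp, became 571 bp at a gap under 500 bp, 670 bp at a gap under 2000 bp and 650 bp with runs kept. With overlap counted within 500 bp, 79.3% of paired peaks were not called in Lck-Cre, 5.01% of members had a called neighbour and 2.22% a B6 ZFAT peak; with overlap of at least 50% of the peak these were 92.1%, 7.19% and 0.809%, all shifts that the overlap rule itself makes. The median length became 250 bp with runs kept and 286 bp with overlap of at least 50% of the peak, and the median pileup 35.0 and 39.0. At P scores of 10 or more the median pileup was 40.0 and the median fold 8.92. No paired analysis was possible because each group had 1 ChIP library and no result comes from a test. Depth limits the weak members: 101 rested on 10 fragments or fewer, and a missing Lck-Cre call at about 1340000 fragments is not a measured absence of acetylation.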

Other observations

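Members were found on every chromosome with acetylation peaks, 1 to 19 and X. They made up 14.99% of floxed acetylation peaks over the genome, from 109 of 939 (11.6%, 9.63% to 13.8%) on chromosome 7 and 67 of 554 (12.1%, 9.50% to 15.1%) on chromosome 6 to 105 of 518 (20.3%, 16.9% to 24.0%) on chromosome 3. Chromosome 3 also had the largest share of paired peaks outside runs, 24.9% against 17.9% over the genome. Chromosome X had 44 members among 236 peaks (18.6%, 13.9% to 24.2%).

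Members were most frequent in the middle of the strength range, at 18.7% of peaks in decile 6 of P score, against 11.4% in decile 1 and 9.22% in decile 10. The rule took out paired peaks called in Lck-Cre, which were 121 of 251 in decile 10 and 18 of 268 in decile 6. These shares therefore reflect the rule as well as the pairing. In 5 of the 864 pairs both peaks had the same P score and fold.

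Paired peaks in runs of 4 or more were called in Lck-Cre less often than the paired peaks outside runs, with 90.8% against 86.5% not called. Those in runs that were not called and had no ZFAT were weaker, at a median of 30 fragments where members had 37. The part of strength in this difference was not tested.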
